A study of Homo sapiens with 6 samples.

Results

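The genes described here form the machinery that ends translation and the small family of methyltransferases that share the cofactor TRMT112. There were 10 members, named by symbol: N6AMT1, its cofactor TRMT112, its protein substrate ETF1 with the partner GSPT1, the recycling factor ABCE1, the related methyltransferase HEMK1, and BUD23, METTL5, TRMT11 and ALKBH8, which also work with TRMT112. All 10 were found among the 62438 genes of the count table, and all 10 passed the expression filter that left 17320 genes for testing. The libraries were made from RNA of human breast cancer cells, MDA-MB-453 by their label, after transfection with an siRNA against N6AMT1 (si-N6AMT1) or with a scrambled siRNA (si-CN), each at 10 nM for 48 h, in 3 libraries per group. Both groups received the same transfection reagent, and no untransfected cells were analysed here. The methods describe the transfected cells as triplicate and name a single cell line. They do not say whether the 3 libraries of a group came from separately grown cultures. The p-values therefore measure the spread between these libraries, which may be technical. Beyond counting noise that spread was small, with a common coefficient of variation of 1.85% in edgeR, so small changes could pass the test. The comparison asks how expression of these genes differed once N6AMT1 had been silenced.

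Library totals ran from 19739247 to 21289740 estimated counts. The cell line label was set against marker genes. MDA-MB-453 is known as a luminal line, whereas the luminal marker TFF3 had 0 counts in every library and KRT19 a mean of 0.805 TPM. The 10 basal or mesenchymal markers summed to between 7590 and 7810 TPM (a level scaled to both library size and transcript length), led by KRT17 with a mean of 4150 TPM, while 12 luminal markers, mostly KRT8, KRT18 and EPCAM, summed to between 2060 and 2130 TPM. The markers therefore went against the label, and the cells are called here only by the label. Of the luminal markers 8 of 12 reached 1 TPM, and of the basal or mesenchymal ones 9 of 10. The luminal sum was 2060 to 2070 TPM in si-CN and 2120 to 2130 TPM in si-N6AMT1 libraries, and the basal sum 7590 to 7660 TPM and 7660 to 7810 TPM. Markers of other cell types summed to 17.8 to 19.5 TPM over both groups, nearly all of it COL1A1 (mean 17.2 TPM), and PTPRC and CD3E of blood cells had 3 counts or fewer per library. The part of these marker levels in the results below was not tested.

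Translation stops when a stop codon enters the ribosome and is read by the release factor eRF1, the product of ETF1, which arrives together with the GTPase eRF3a, the product of GSPT1. A glycine-glycine-glutamine loop of eRF1 then frees the finished protein, and the ATPase ABCE1 splits the ribosome for reuse. N6AMT1, bound to TRMT112, methylates the glutamine of that loop, and the study examines it as a writer of N6-methyladenine in DNA. TRMT112 has no catalytic activity known on its own and stabilises several enzymes. These are BUD23 and METTL5, which methylate 18S ribosomal RNA, TRMT11, which methylates a guanosine of transfer RNA, and ALKBH8, which completes a modified uridine at the wobble position of transfer RNA. HEMK1 methylates the same glutamine in a mitochondrial release factor and belongs to the list through this shared chemistry rather than through TRMT112.

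The coding stretches that tie enzyme and substrate together are shown first, because N6AMT1 and HEMK1 act on the very motif printed for the release factors. They were read from reference transcripts of GENCODE v44 on GRCh37 (hg19), 5′ to 3′ on the coding strand, and each was identical to the genome sequence. Capitals mark the codons for glycine, glycine and glutamine in ETF1 (codons 183 to 185 of 437, chr5:137849257-137849260 in exon 5 and chr5:137848621-137848643 in exon 6, minus strand), MTRF1L (codons 250 to 252 of 380, chr6:153314032-153314058 in exon 5, minus strand) and MTRF1 (codons 311 to 313 of 445, chr13:41808066-41808092 in exon 7, minus strand).
ETF1: cacggtagaGGAGGTCAGtcagccttg
MTRF1L: agtggagctGGGGGGCAGcatgtaaat
MTRF1: aaaggagcaGGAGGGCAGcatgttaat
The last capital codon is CAG in all 3, which encodes the glutamine. MTRF1L holds a further match at codons 138 to 140.

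In the methyltransferases, capitals mark the codons of the catalytic motif of N6-adenine and glutamine methyltransferases, asparagine-proline-proline-tyrosine in N6AMT1 (codons 122 to 125 of 214, chr21:30252204-30252233, exon 4, minus strand) and HEMK1 (codons 239 to 242 of 338, chr3:50616293-50616322, exon 8, plus strand). METTL5 ends the motif with phenylalanine (codons 126 to 129 of 209, chr2:170677612-170677641, exon 3, minus strand). TRMT11 opens it with aspartate (codons 308 to 311 of 463, chr6:126332551-126332563 in exon 9 and chr6:126333917-126333933 in exon 10, plus strand).
N6AMT1: ctggtgtttAATCCCCCCTATgtagtgact
HEMK1: attgtcagcAACCCTCCCTACgtcttccac
METTL5: gtaattatgAATCCTCCCTTTgggaccaaa
TRMT11: atcattactGATCCTCCATATggtatcaga
BUD23 and ALKBH8 modify other atoms and were not searched for this motif.

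Among the 10 members, 5 passed the test. N6AMT1 and ETF1 fell, and TRMT112, METTL5 and BUD23 rose, while GSPT1, ABCE1, HEMK1, TRMT11 and ALKBH8 were not called. Apart from N6AMT1 the changes were small, and among those called ranged from ETF1, which fell by 6.97%, to METTL5, which rose by 20.6%. A gene was called when its false discovery rate (FDR, the Benjamini-Hochberg adjusted p over all 17320 genes) in edgeR's quasi-likelihood test was under 0.05, and this rule called 11.5% of all tested genes downward and 9.78% upward, 21.3% in all. The 2 groups of libraries did not overlap for the same 5 members, 2 with si-N6AMT1 below and 3 with it above, where 34.9% of all tested genes did not overlap (18.0% below and 16.8% above). The median log2 fold change of the members was 0.03, beside 0.00385 for all tested genes. The median absolute log2 fold change was 0.076 for the members and 0.107 for all tested genes. Absolute changes of METTL5, TRMT112, ETF1 and BUD23 were larger than those of 82.7%, 59.0%, 48.9% and 46.4% of tested genes. Because the members were chosen with earlier results of these data known, these counts and values describe the list only. Values below are CPM, counts scaled to library size with edgeR's TMM factors, unless TPM is named.

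**Figure D1:**
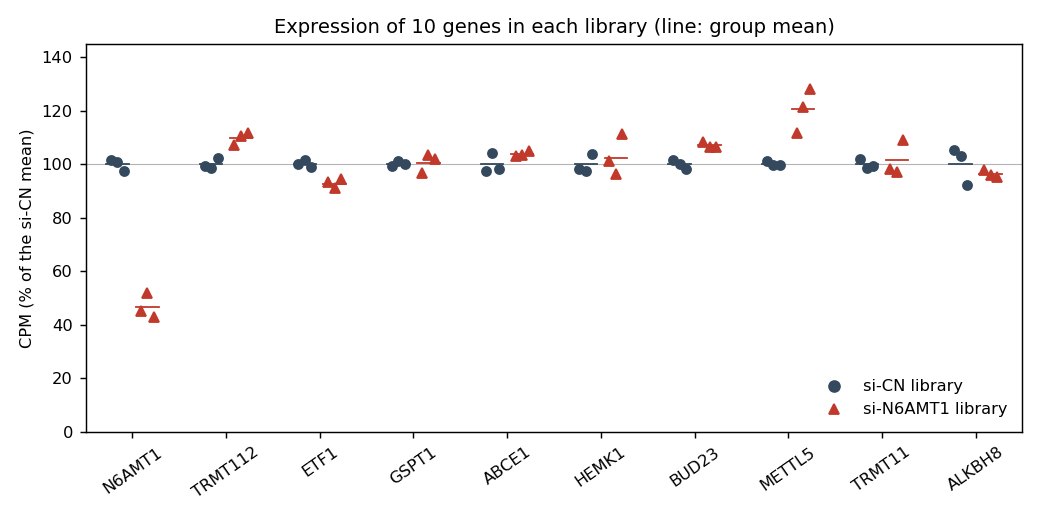
Expression of the 10 genes in each library, as CPM in percent of the si-CN mean of the gene, with circles for si-CN, triangles for si-N6AMT1 and a line at each group mean (n = 3 libraries). N6AMT1 lay far below its control level in all 3 si-N6AMT1 libraries, ETF1 slightly below, and TRMT112, BUD23 and METTL5 above, with METTL5 the most spread.

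N6AMT1 (ENSG00000156239, chr21:30244513-30257693 in GRCh37, minus strand) is the target of the siRNA. Its levels were 3.08, 3.53 and 2.93 CPM in si-N6AMT1 replicates 1 to 3 and 6.93, 6.86 and 6.65 CPM in si-CN replicates 1 to 3. Every si-N6AMT1 library was thus below every si-CN library, and the mean fell by 53.4% (3.18 ± 0.312 against 6.81 ± 0.145 CPM, SD, n = 3). The log2 fold change was -1.10 (95% interval -1.34 to -0.85, standard error, SE, 0.119, edgeR quasi-likelihood FDR = 3.65e-07). Its absolute log2 fold change was larger than those of 99.8% of tested genes. N6AMT1 rests on only 60 to 141 counts per library, and without si-N6AMT1 replicate 2, the highest of its group, the log2 fold change was -1.18. The direction matches the labels of all 6 libraries.

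By Pearson correlation of log2 CPM over the 6 libraries, the 3 protein-coding genes with the pattern most like N6AMT1, among 12533 ranked, were UHRF1 (r = 0.999), FLVCR1 (r = 0.998) and MYBL2 (r = 0.998). UHRF1, which maintains cytosine methylation at replication, had 57.7 to 60.5 CPM in si-N6AMT1 and 74.4 to 75.5 CPM in si-CN libraries. FLVCR1, a membrane transporter, had 33.7 to 36.4 CPM against 46.3 to 48.3 CPM. MYBL2, a transcription factor of the cell cycle, had 230 to 235 CPM against 267 to 271 CPM. These r values are a description over 6 libraries in 2 groups, which share the group difference, and all 3 genes fell less than N6AMT1, with log2 fold changes of -0.34, -0.44 and -0.22 (FDR = 6.97e-08, 6.58e-08 and 1.93e-07 from the same test).

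TRMT112 (ENSG00000173113, chr11:64083932-64085031, minus strand), the shared cofactor, rose. It had 95.2, 98.2 and 99.2 CPM in si-N6AMT1 replicates 1 to 3, and 88.2, 87.6 and 90.8 CPM in si-CN replicates 1 to 3. The lowest si-N6AMT1 library stood above the highest si-CN library, a rise of 9.83% in the mean. The log2 fold change was 0.13 (95% interval 0.07 to 0.20, SE 0.0299, edgeR quasi-likelihood FDR = 0.00198), and only DESeq2 without its independent filtering, among 14 alternatives, did not call it. TRMT112 overlaps ESRRA, which encodes a nuclear receptor on the opposite strand and was itself higher (log2 fold change 0.28, FDR = 1.04e-05). The strand option used in counting is not given in the sources used here, so how far reads of ESRRA entered the count of TRMT112 was not tested.

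METTL5 (ENSG00000138382, chr2:170666591-170681441, minus strand) had the largest rise of the members. This enzyme places N6-methyladenosine in 18S ribosomal RNA. Its levels were 27.6, 30.0 and 31.7 CPM in si-N6AMT1 replicates 1 to 3 but 25.0, 24.6 and 24.6 CPM in si-CN replicates 1 to 3. The groups were separate, and the si-N6AMT1 libraries were spread more widely (SD 2.06 CPM) than those of si-CN (SD 0.252 CPM). The mean was 20.6% higher, with a log2 fold change of 0.27 (95% interval 0.16 to 0.38, SE 0.0546, edgeR quasi-likelihood FDR = 0.000793). It stayed called under all 14 alternatives, between 0.22 and 0.32 on the log2 scale. With DESeq2 without its independent filtering the call was only just made (FDR = 0.0488). METTL5 overlaps SSB on the opposite strand, which was not called (log2 fold change 0.04, FDR = 0.367).

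BUD23 (ENSG00000071462, chr7:73097927-73112542, plus strand), which methylates a guanosine of 18S ribosomal RNA at N7, rose as well. Si-N6AMT1 replicates 1 to 3 had 103, 101 and 101 CPM, and si-CN replicates 1 to 3 had 96.5, 95.1 and 93.5 CPM. All si-N6AMT1 libraries were higher than all si-CN libraries, by 6.98% in the mean. The log2 fold change was 0.10 (95% interval 0.04 to 0.16, SE 0.0284, edgeR quasi-likelihood FDR = 0.0156). The call was lost without si-CN replicate 3, the lowest of its group (log2 fold change 0.09, FDR = 0.0772), and with DESeq2 (FDR = 0.134).

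The remaining partners of TRMT112 among the members were not called. TRMT11 (ENSG00000066651, chromosome 6) had 30.3, 29.9 and 33.6 CPM in si-N6AMT1 replicates 1 to 3 and 31.4, 30.4 and 30.6 CPM in si-CN, and its groups overlapped (95% interval of the log2 fold change -0.08 to 0.13). ALKBH8 (ENSG00000137760, chromosome 11) had 9.59, 9.40 and 9.31 CPM against 10.3, 10.1 and 9.01 CPM, with si-CN replicate 3 below every si-N6AMT1 library. Its interval was wider, from -0.23 to 0.13, so smaller changes in either direction were not detectable at this depth. Outside the members, THUMPD2 and THUMPD3 are further TRMT112 partners that methylate guanosines of U6 small nuclear RNA and of transfer RNA. THUMPD3 fell, with 52.5, 54.6 and 52.5 CPM in si-N6AMT1 replicates 1 to 3 and 61.3, 55.8 and 57.1 CPM in si-CN. Its groups did not overlap, and the log2 fold change was -0.13 (SE 0.0397, edgeR quasi-likelihood FDR = 0.0261), a call that 6 of 14 alternatives did not make. Among those were the fits without si-N6AMT1 replicate 1 (FDR = 0.0808), si-N6AMT1 replicate 3 (FDR = 0.0928) and si-CN replicate 1 (FDR = 0.163). THUMPD2 was not called (log2 fold change -0.06, FDR = 0.349).

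ETF1 (ENSG00000120705, chr5:137841784-137878925, minus strand), the substrate of N6AMT1 in termination, was lower. Its levels were 116, 113 and 117 CPM in si-N6AMT1 replicates 1 to 3 and 124, 126 and 123 CPM in si-CN replicates 1 to 3. The 2 groups were separate by a narrow gap, from 117 to 123 CPM. The mean fell by 6.97%, with a log2 fold change of -0.10 (95% interval -0.16 to -0.05, SE 0.0268, edgeR quasi-likelihood FDR = 0.00673). The call was lost without si-N6AMT1 replicate 2, the lowest of its group (FDR = 0.0524), with DESeq2 (FDR = 0.0617), and when GC content was corrected with the replicate number as a block (log2 fold change -0.07, FDR = 0.0997).

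GSPT1 (ENSG00000103342, chromosome 16), which carries eRF1 to the ribosome, was the highest member in CPM and was not called. It had 202, 216 and 213 CPM in si-N6AMT1 replicates 1 to 3, around the 208, 212 and 209 CPM of si-CN, and the interval of its log2 fold change ran from -0.05 to 0.06. GSPT1 counts per ETF1 count were 1.74, 1.91 and 1.82 in si-N6AMT1 and 1.67, 1.68 and 1.70 in si-CN libraries. This ratio, which needs no scaling between libraries, was higher in every si-N6AMT1 library, by 7.98% in the mean (1.82 ± 0.0853 against 1.69 ± 0.0134, SD, n = 3, two-sided exact permutation test p = 0.1, the smallest that 3 libraries against 3 allow). GSPT2, the intronless copy of GSPT1 that encodes eRF3b, had 0 counts in all 6 libraries and was not tested. Pseudogenes of ETF1 had at most 3 counts in any library.

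ABCE1 (ENSG00000164163, chromosome 4), which recycles the ribosome, had 91.9, 92.2 and 93.8 CPM in si-N6AMT1 replicates 1 to 3 and 87.1, 93.0 and 87.6 CPM in si-CN. Replicate 2 of si-CN lay among the si-N6AMT1 libraries, and the gene was not called (log2 fold change 0.05, 95% interval -0.01 to 0.12, edgeR quasi-likelihood FDR = 0.252). Among 14 alternatives, only the fit with GC correction and the replicate block called it (log2 fold change 0.10, FDR = 0.0424). ABCE1 overlaps OTUD4 on the opposite strand, which was lower (log2 fold change -0.13, FDR = 0.00333), and the part of its reads in the ABCE1 count was not tested. HEMK1 (ENSG00000114735, chromosome 3) had 16.1, 15.3 and 17.7 CPM against 15.6, 15.5 and 16.5 CPM, with overlapping groups and an interval from -0.10 to 0.19.

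Levels can be compared between genes only per length. In TPM, from the length of each reference transcript, the order in si-CN libraries was TRMT112 (243 ± 6.36 TPM, SD, n = 3), BUD23 (176 ± 1.35), ETF1 (75.0 ± 1.21), GSPT1 (65.2 ± 1.28), METTL5 (54.9 ± 0.101), ABCE1 (51.1 ± 2.26), TRMT11 (37.2 ± 0.269), ALKBH8 (5.35 ± 0.334), N6AMT1 (3.13 ± 0.0465) and HEMK1 (2.08 ± 0.0858). No neighbours in this order overlapped between their si-CN libraries, although METTL5 and ABCE1 came close, with 54.8 TPM in the lowest library of one and 53.6 TPM in the highest of the other. TRMT112 stood above 95.8% of tested protein-coding genes and N6AMT1 above only 17.7%.

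The order depends on the lengths chosen. With the median length of all annotated transcripts of a gene, GSPT1 came first (181 TPM), then ETF1 (138 TPM) and TRMT112 (135 TPM), and N6AMT1 came last at 1.48 TPM. HEMK1 moved most at the low end, from 2.08 to 5.04 TPM, since its reference transcript has 16993 bases and the median of its 7 transcripts 3265. In both versions N6AMT1, ALKBH8 and HEMK1 were the 3 lowest members, and TRMT112 stood far above N6AMT1.

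**Figure D2:**
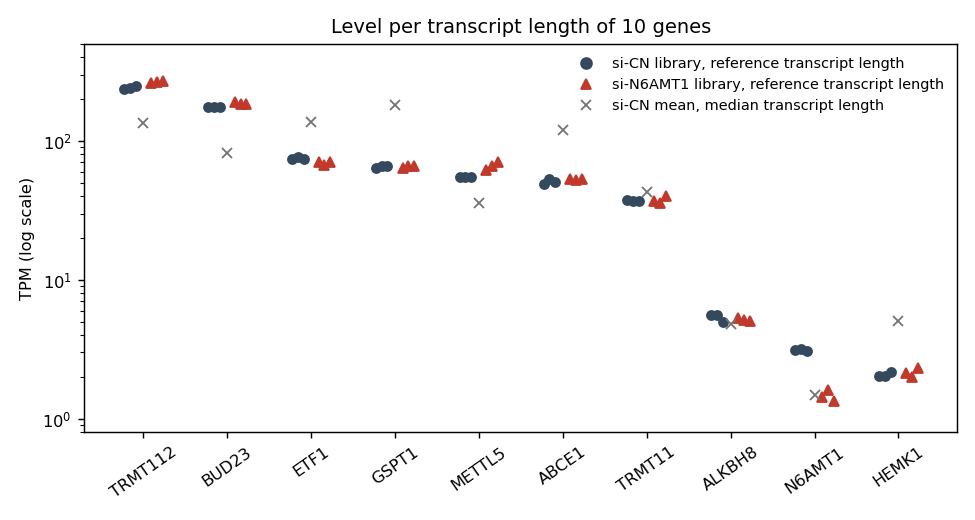
Level per transcript length of the 10 genes, in TPM on a log axis, for si-CN libraries (circles) and si-N6AMT1 libraries (triangles) with the reference transcript length, and for the si-CN mean with the median transcript length (crosses). TRMT112 and BUD23 lay above 100 TPM and ALKBH8, N6AMT1 and HEMK1 below 10 TPM with the first length, and the crosses show how far the choice of length moves each gene.

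Since TRMT112 serves several enzymes, its mRNA was set against the summed mRNA of 7 partners (N6AMT1, BUD23, METTL5, TRMT11, ALKBH8, THUMPD2 and THUMPD3). The partners together had 357, 355 and 353 TPM in si-CN and 370, 369 and 377 TPM in si-N6AMT1 replicates 1 to 3, without overlap, although with median transcript lengths the groups overlapped. TRMT112 came to 0.668, 0.679 and 0.709 of that sum in si-CN and to 0.711, 0.722 and 0.718 in si-N6AMT1 libraries. All si-N6AMT1 values were the higher ones, but the lowest, 0.711, was barely above the highest si-CN value, 0.709. The mean ratio was 4.60% higher (0.717 ± 0.00558 against 0.685 ± 0.0213, SD, n = 3, two-sided exact permutation test p = 0.1, the smallest possible), and 8.34% higher with median transcript lengths.

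N6AMT1 mRNA was a minor part of the partners. It made up 0.880%, 0.892% and 0.871% of their summed TPM in si-CN libraries and 0.385%, 0.434% and 0.355% in si-N6AMT1 libraries. BUD23 alone made up 49.5% ± 0.275 in si-CN and 50.5% ± 1.25 in si-N6AMT1 libraries (SD, n = 3), which overlapped with these lengths and not with median lengths. METTL5 went from 15.5% ± 0.106 to 17.8% ± 0.957 without overlap (exact permutation test p = 0.1, the smallest possible). In TPM, N6AMT1 went from a mean of 3.13 to 1.46, METTL5 from 54.9 to 66.1 and BUD23 from 176 to 188, so the fall of N6AMT1 was small in absolute terms beside the rises of the other pair. For each N6AMT1 count there were 17.9, 18.3 and 18.5 counts of its substrate ETF1 in si-CN and 37.8, 32.1 and 40.0 in si-N6AMT1 libraries. The siRNA target is the divisor here, so the ratio restates its fall, while ETF1 itself fell by 6.97%. These counts were not scaled to transcript length.

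**Figure D3:**
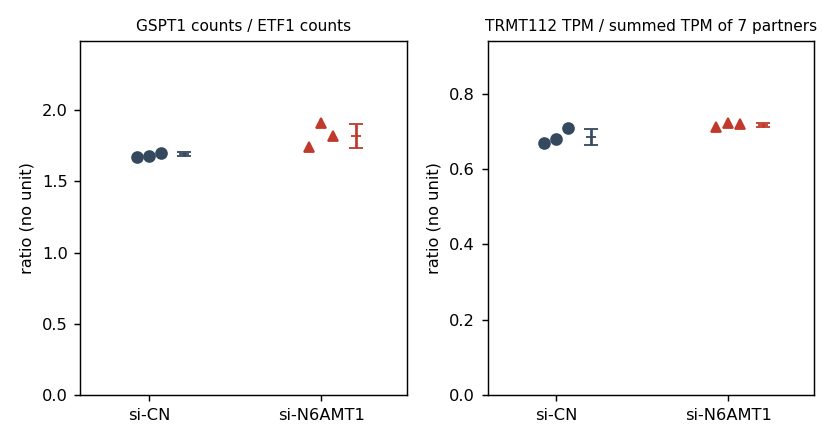
GSPT1 counts per ETF1 count (left) and TRMT112 TPM per summed TPM of 7 partners (right) in each library, with the mean and SD of each group of 3 libraries beside the points. Both ratios were higher in si-N6AMT1 libraries, each by less in the mean than the gap between some replicates of a group.

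Sequences of 7 bases in 3′ UTRs were read for the members because TTCACAT and TCACATA had been picked earlier, on the fold changes of these same libraries, as going with lower expression. Their presence is a description and no independent support. Of 13108 tested protein-coding genes with a 3′ UTR of at least 50 bases, 22.5% held one of them on the mRNA strand. Among the members, ETF1 and ALKBH8 held 1 match each, GSPT1 2 and HEMK1 3, while N6AMT1, TRMT112, ABCE1, BUD23, METTL5 and TRMT11 held none. THUMPD3 held 3. The matches of ETF1 (chr5:137842085-137842107, exon 11, minus strand), ALKBH8 (chr11:107374238-107374260, exon 12, minus strand), GSPT1 (chr16:11964258-11964280 and chr16:11962865-11962887, exon 15, minus strand) and the first of THUMPD3 (chr3:9427225-9427247, exon 10, plus strand) are printed because these genes differ in how they moved, with the matched bases in capitals.
ETF1: cttgttgtTTCACATgatacatt
ALKBH8: tcaaattaTCACATAgaaggaaa
GSPT1 first: tgcatcttTTCACATtaatgatg
GSPT1 second: tacacttcTCACATAcctctaat
THUMPD3 first: atctgttaTTCACATtaatacac
Of these, ETF1 and THUMPD3 fell, and GSPT1 and ALKBH8 were not called. HEMK1, whose 3 matches are not printed, was not called either (log2 fold change 0.04, edgeR quasi-likelihood FDR = 0.746). Its matches include TTCACATA, which holds both sequences. None of the 3 members that rose held a match, but their 3′ UTRs are short, with 401 bases in TRMT112, 326 in BUD23 and 63 in METTL5, and in UTRs of similar length (at most 20% shorter or 25% longer) 4.65%, 3.05% and 0.524% of genes held one. For ETF1, with 2210 bases, the share in UTRs of similar length was 28.6%. The share was 26.7% for THUMPD3, 52.2% for GSPT1, 23.3% for ALKBH8 and 91.1% for HEMK1. N6AMT1 held none in 4174 bases, where 46.7% of similar UTRs did.

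The wider pathway was read from 7 lists with 102 genes, of which 101 were tested. In these, 11 genes fell and 7 rose, 17.8% in all, near the 21.3% of all tested genes, and the median log2 fold change was -0.01. Only 6 genes fell without si-N6AMT1 replicate 3 and 7 without si-CN replicate 2, where 8.9% and 9.24% of all tested genes fell. Among these lists of 2 to 30 genes, that of cytosolic termination, recycling and ribosome rescue had the most calls in 1 direction. It had 7 genes lower, 1 higher and 15 not called of 23 tested, and a median of -0.05. Over all tested genes 11.5% were lower and 9.78% higher, and in this list 34.8% were called. EIF5A2 fell most there, from 107 to 111 CPM in si-CN to 77.2 to 80.7 CPM in si-N6AMT1 libraries (log2 fold change -0.46, edgeR quasi-likelihood FDR = 1.38e-10). It encodes an isoform of the hypusine-bearing factor that helps elongation and termination. EIF5A, which encodes the other isoform and is named after its values were seen, was far higher and not called. Its means were 733 CPM in si-N6AMT1 and 727 CPM in si-CN libraries (log2 fold change 0.01, FDR = 0.783 from the same test). ASCC3, a helicase that takes apart collided ribosomes, fell from 118 to 122 CPM to 107 to 110 CPM (log2 fold change -0.15, FDR = 0.000214). PAIP2, which binds and restrains the poly(A)-binding protein, was the gene that rose, from 230 to 245 CPM to 260 to 267 CPM (log2 fold change 0.14, FDR = 0.000272). The other 5 lower genes were HBS1L, LTN1, ZNF598, PABPC1 and OGFOD1, named after their values were seen, with log2 fold changes between -0.16 and -0.06. In that order their FDR values from the same test were 0.00372, 0.00059, 0.0406, 0.0318 and 0.00173, so ZNF598 and PABPC1 were near the threshold. How far these 5 calls held under other settings is not given gene by gene.

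Of 6 genes of mitochondrial termination and rescue, 0 were called by edgeR's quasi-likelihood test, DESeq2 or limma-voom, and 1 had an unadjusted p under 0.05 in edgeR. MTRF1L, which carries the glutamine that HEMK1 methylates, was the nearest, with 32.8, 33.1 and 28.9 CPM in si-N6AMT1 replicates 1 to 3 and 36.8, 33.4 and 34.1 CPM in si-CN. Its groups did not overlap, but the gap between 33.1 and 33.4 CPM was small (log2 fold change -0.14, 95% interval -0.25 to -0.02, edgeR quasi-likelihood FDR = 0.0789, unadjusted p = 0.0193). The other release factor MTRF1 and the rescue factors MTRFR and MRPL58 had log2 fold changes of -0.09, -0.06 and 0.05, and the recycling factors MRRF and GFM2 had 0.01 and -0.01, with FDR from 0.433 to 0.944.

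Among 16 genes of ribosomal RNA modification, beside METTL5 and BUD23, 2 rose and 1 fell. FBL, the 2′-O-methyltransferase of box C/D particles, went from 184 to 186 CPM in si-CN to 196 to 198 CPM in si-N6AMT1 libraries (log2 fold change 0.10, edgeR quasi-likelihood FDR = 0.00437). EMG1, which modifies 18S ribosomal RNA, rose by 0.13 on the log2 scale (FDR = 0.0200). MRM3, a mitochondrial ribosomal RNA methyltransferase, fell from 17.1 to 19.6 CPM to 14.4 to 15.0 CPM (log2 fold change -0.31, FDR = 0.00207). EMG1 was not called without si-N6AMT1 replicate 3 (FDR = 0.135), si-CN replicate 2 (FDR = 0.0711) or si-CN replicate 3 (FDR = 0.0995). It lost its call in 5 of 14 alternatives, among them DESeq2 (FDR = 0.143). FBL lost its call in 2, the block with GC correction (FDR = 0.0931) and DESeq2 without independent filtering (FDR = 0.109). MRM3 lost its call only in the latter (FDR = 0.105).

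In 30 transfer RNA methyltransferases beside TRMT11, 1 fell and 2 rose, below the share of all genes. TRMT5, which methylates guanosine next to the anticodon, went from 24.7 to 26.0 CPM to 27.4 to 30.4 CPM (log2 fold change 0.22, FDR = 0.00445). Its call was lost in 2 of 14 alternatives, DESeq2 with its independent filtering (FDR = 0.0603) and without it (FDR = 0.205). FTSJ1, which methylates the anticodon loop, rose by 0.10 (FDR = 0.0208), and TRMT1L fell by 0.15 on the log2 scale (FDR = 0.0311). The calls of FTSJ1 and TRMT1L were each lost in 7 of 14 alternatives, among them the fits without si-N6AMT1 replicate 1 (FDR = 0.0643 for FTSJ1 and 0.138 for TRMT1L), si-N6AMT1 replicate 3 (0.0537 and 0.148), si-CN replicate 2 (0.0634 and 0.0507) and si-CN replicate 3 (0.0950 and 0.151). The pathway that builds the wobble uridine finished by ALKBH8 had 2 higher genes of 14. These were NFS1, the cysteine desulfurase that supplies sulfur, with 66.7 to 71.5 CPM in si-CN and 79.7 to 82.9 CPM in si-N6AMT1 libraries (log2 fold change 0.25, FDR = 1.32e-05), and ELP5 of the Elongator complex (log2 fold change 0.16, FDR = 0.0169). ELP5 lost its call in 5 of 14 alternatives. Among them were the fits without si-N6AMT1 replicate 2 (FDR = 0.0924) or si-CN replicate 3 (FDR = 0.118), and DESeq2 (FDR = 0.146). CTU2, which thiolates the same uridine, was not called (log2 fold change 0.16, FDR = 0.197). Of 10 methyltransferases of elongation factors and ribosomal proteins, only PRMT3 was called (log2 fold change -0.16, FDR = 0.0463), and leaving out any single library other than si-N6AMT1 replicate 1 removed that call (FDR between 0.0512 and 0.290). METTL13 and EEF2KMT had log2 fold changes of 0.06 and 0.17 (FDR = 0.382 and 0.344).

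**Figure D4:**
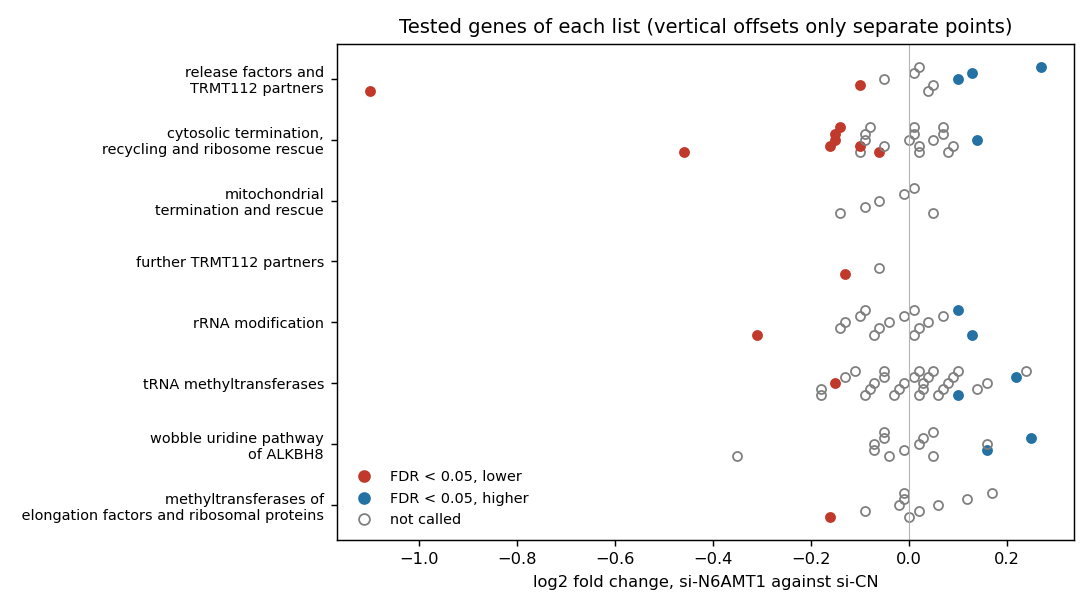
Log2 fold change of each tested gene, si-N6AMT1 against si-CN, for the 10 members (top row) and 7 lists of neighbouring pathways, filled where the FDR of edgeR's quasi-likelihood test was under 0.05. Filled points lie on both sides of 0 for the members, cytosolic termination, rRNA modification and tRNA methyltransferases, the list of cytosolic termination has 7 filled points below 0 and 1 above, and the list of mitochondrial termination has none.

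How far the calls of the members held is shown by refitting them under 14 other settings. N6AMT1 and METTL5 kept their calls wherever an FDR was given, TRMT112 in all but 1 setting, BUD23 in all but 3 and ETF1 in all but 4. GSPT1, HEMK1 and TRMT11 were never called, and the sign of their log2 fold change turned in at least 1 of the settings.

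**Figure D5:**
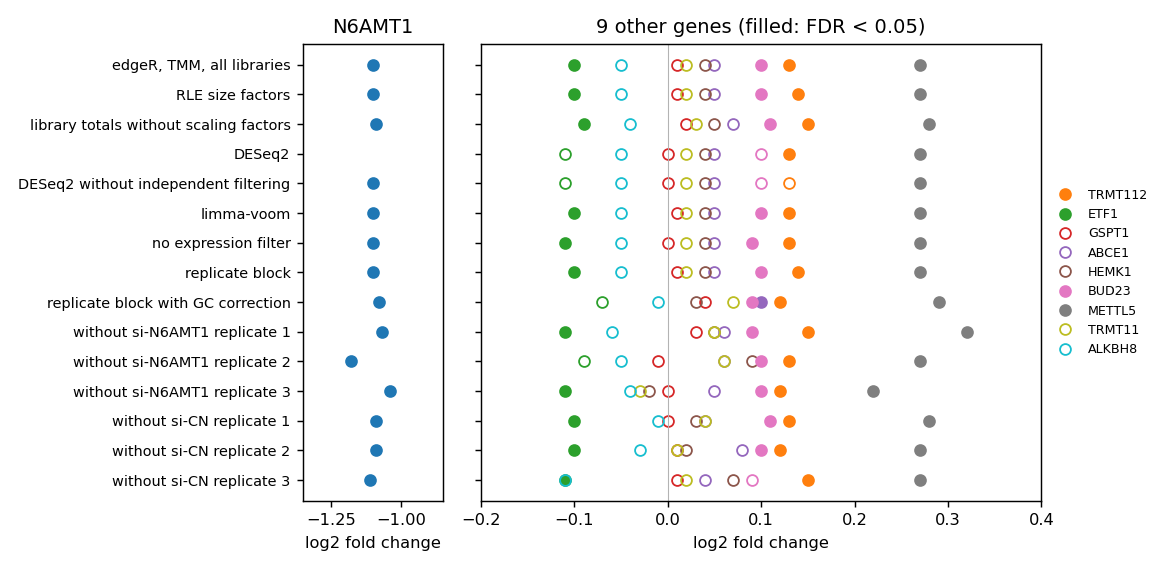
Log2 fold change of N6AMT1 (left) and the 9 other members (right, on its own scale) in the main fit at the top and under 14 other settings, filled where the FDR was under 0.05 (DESeq2 gave none for N6AMT1). The order of METTL5, TRMT112 and BUD23 above 0 and ETF1 below 0 is seen in each row, whereas GSPT1, HEMK1 and TRMT11 lie on either side of 0. ABCE1 stays above 0 and is filled in 1 row, and ALKBH8 stays below 0.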

How the data were processed

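RNA-seq libraries, 3 for each siRNA, were grouped by their labels. The authors trimmed reads with Trim Galore, quantified them with kallisto (version 0.46.0) against GENCODE version 33 on hg19, and deposited estimated counts per gene as whole numbers. kallisto shares reads among similar transcripts, and the strand option is not given in the sources used here. Of 62438 gene identifiers, 62149 had a symbol, and 289 without one entered the tests by identifier. Depth was 19739247 to 21289740 counts per library.

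Counts were filtered (filterByExpr, minimum count 10), scaled by TMM and tested with edgeR (version 4.0.16) in R (version 4.3.3) by the quasi-likelihood test, and p-values were adjusted by Benjamini-Hochberg over 17320 genes. Standard errors came from the fold change and the F statistic of each gene, and intervals are at 95%. Ratios were compared by two-sided exact permutation tests. CPM are TMM-scaled, and TPM used transcript lengths of GENCODE version 44 on GRCh37, the same build. Alternatives used limma-voom (limma version 3.58.1), DESeq2 (version 1.42.0), other scalings, no filter, a replicate block and each library left out. DESeq2 without independent filtering was added after seeing the data.

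Members and lists were chosen with earlier results of these data known. Named genes were the 10 members, the 3 genes of lowest p in each list (in 2 lists every gene), and the 3 protein-coding genes with a mean of at least 1 CPM most correlated with N6AMT1. The test was also tried on simulated data. Of 196 changed genes it recovered 53.1% at a 1.2-fold change and 87.8% at a 1.5-fold change. Of its calls 7.14% and 6.01% were false, both more than an FDR of 0.05 allows. Changes under 1.2-fold, like those of TRMT112, ETF1 and BUD23, were not simulated.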

Additional observations from a re-analysis of the deposited data

How the results depend on the processing

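Of the 10 genes, 2 were called lower and 3 higher. DESeq2 called 0 lower, where N6AMT1 had no adjusted p because of its independent filtering, and 2 higher. DESeq2 without that filtering, chosen after seeing the data, called 1 lower (N6AMT1, FDR = 2.44e-06) and 1 higher (METTL5). Among the 9 genes other than N6AMT1, 4 were called, against 2 and 1 in these DESeq2 fits. In the 7 lists, 18 calls (11 lower, 7 higher) became 10 (7 and 3) with DESeq2 and 6 (4 and 2) without filtering. That setting tested 39446 genes in place of 17320. Calls over all genes moved too, from 11.5% lower and 9.78% higher in the main fit. DESeq2 called 10.1% lower and 7.06% higher of the 11277 genes with an adjusted p. Without its filtering these shares were 2.16% and 1.49%. With 1 library left out, 8.68% to 10.2% of all tested genes were lower and 7.3% to 8.55% higher. Leaving out 1 library gave 1 to 2 members called lower, 2 to 3 called higher, 3 to 4 called among the 9, 12 to 15 list genes called, 6 to 10 of them lower and 5 to 7 higher, and a log2 fold change of N6AMT1 from -1.18 to -1.04. It moved the excess of the GSPT1 to ETF1 ratio between 5.38% and 10.4%, and that of TRMT112 over its partners between 3.28% and 6.45%, or 8.34% with median transcript lengths.

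Signs turned only for values near 0 that were not called. Leaving out 1 library, the log2 fold change of GSPT1 ranged from -0.01 to 0.03 (-0.01 without si-N6AMT1 replicate 2 and -0.00 without replicate 3). HEMK1 ranged from -0.02 to 0.09 and TRMT11 from -0.03 to 0.06, with the lowest value of each without si-N6AMT1 replicate 3. MRRF ranged from -0.04 (without si-CN replicate 3) to 0.05 and had -0.01 without si-N6AMT1 replicate 3. GFM2 ranged from -0.04 to 0.02, with 0.01 without si-N6AMT1 replicate 3 and 0.02 without si-CN replicate 3, and had 0.00 with library totals alone and 0.02 with the block and GC correction. The cause of these shifts was not tested.

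Libraries with the same replicate number did not deviate together (r = -0.0381, -0.0422 and 0.00997), so the numbers were not taken as pairs. With the replicate block, 2 members were called lower and 3 higher, 4 among the 9, and 15 list genes (8 lower, 7 higher), with N6AMT1 at -1.10. PRMT3 lost its call (FDR = 0.0508). The block with GC correction called 1 member lower and 4 higher. Over all tested genes, the block called 10.4% lower and 8.79% higher, and with GC correction 9.49% and 8.35%. N6AMT1, with 60 to 141 counts per library, had the widest interval of the members.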
